A study of Mus musculus with 6 samples.

Results

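The genes described here encode the proteins of the mitochondrial ribosome, and they were taken from the deposited iWAT RNA-Seq table by symbol, as every gene whose name begins with *Mrpl* or *Mrps* followed by a number. This rule uses no measured value and gave 77 of the 16538 genes listed, 48 named for the large subunit (*Mrpl*) and 29 named for the small subunit (*Mrps*). The RNA came from iWAT, the inguinal white fat depot under the skin, of cold-acclimated mice of 2 genotypes, with 3 libraries per genotype and the RNA of 2 mice pooled in each library. Control mice carried the floxed *Nrg4* gene without Cre (fl/fl, entered as wt in the sample labels), and AKO stands here for the libraries labelled NRG4-AKO, from a line in which Adiponectin-Cre is meant to delete *Nrg4*, the gene of the secreted growth factor neuregulin 4, in adipocytes. Mice of both genotypes had been kept at 8°C, for 10 days by the labels (the text of the study gives a different number of days), so the tissue was compared in the cold only. By this design the other cells of the depot would keep the gene, which was not measured by cell type here.

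The mitochondrial ribosome translates the few proteins encoded by mitochondrial DNA, all of them core subunits of the respiratory chain and the ATP synthase. Its RNAs are transcribed inside the organelle, whereas its proteins are encoded in the nucleus, made in the cytosol and imported, so a working ribosome draws on both genomes. Some of its proteins descend from bacterial ribosomal proteins and others are found only in mitochondria. Brown and beige adipocytes are rich in mitochondria, and beige adipocytes appear within white depots such as iWAT in the cold.

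Levels are given as normalized counts, that is, reads per gene after scaling between libraries and with no division by gene length, in the order control 1, 2 and 3, then AKO 1, 2 and 3. Between 17570335 and 18373707 reads per library fell on the listed genes. The targeted gene *Nrg4* was at 3128, 3102 and 3092 in control and 2577, 2627 and 2691 in AKO, a log2 fold change (AKO minus control) of -0.24 ± 0.05 (SE, n = 3 per group) that did not pass the adjusted threshold in limma (adjusted p = 0.298). Every AKO library was below every control library, but the mean differed by only -15.3%, so these counts do not themselves show the loss of *Nrg4* that the label states. By quantitative PCR, the study reported *Nrg4* mRNA to be nearly absent from iWAT of AKO mice. The counts here are per whole gene, and the exons that the reads came from are not known. The 6 adipocyte markers chosen (*Adipoq*, *Plin1*, *Fabp4*, *Lep*, *Cfd* and *Retn*) summed to 401525 to 445351 in control and 351843 to 412276 in AKO. All 6 beige adipocyte markers (*Ucp1*, *Cidea*, *Dio2*, *Elovl3*, *Cox7a1* and *Cox8b*) were lower in every AKO library than in every control library. Their sums were 27331 to 39379 in control and 11047 to 14552 in AKO. Of all genes tested, 8.31% had every AKO library below every control library. The *Nrg4* counts cover whole tissue, in which fewer cells of a type and less RNA per cell cannot be told apart, and the same holds for every gene below.

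The promoters of 4 members with different fold changes are printed as examples. *Mrps27* had the lowest log2 fold change of all members, *Mrpl45* was among the lowest of the large subunit, *Mrpl36* had the highest, and *Mrps26* lay close to 0. Each stretch holds 150 bases of RefSeq sequence (GRCm38.p6, plus strand), 125 before and 25 after the annotated start, and capitals mark letters of the motifs searched for NRF-1, GABP and YY1, 3 factors that bind many promoters of nuclear genes for mitochondrial proteins.
*Mrps27*, chr13:99344661-99344810: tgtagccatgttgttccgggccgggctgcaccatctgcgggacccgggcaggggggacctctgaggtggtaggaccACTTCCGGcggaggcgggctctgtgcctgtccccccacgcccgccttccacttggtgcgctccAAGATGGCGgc
*Mrpl45*, chr11:97315591-97315740: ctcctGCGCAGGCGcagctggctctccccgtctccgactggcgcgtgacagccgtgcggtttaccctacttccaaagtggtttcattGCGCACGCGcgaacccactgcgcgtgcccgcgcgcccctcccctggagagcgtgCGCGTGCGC
*Mrpl36*, chr13:73330884-73331033: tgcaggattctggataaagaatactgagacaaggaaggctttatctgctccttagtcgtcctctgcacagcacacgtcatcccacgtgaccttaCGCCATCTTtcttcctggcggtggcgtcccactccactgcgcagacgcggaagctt
*Mrps26*, chr2:130563632-130563781: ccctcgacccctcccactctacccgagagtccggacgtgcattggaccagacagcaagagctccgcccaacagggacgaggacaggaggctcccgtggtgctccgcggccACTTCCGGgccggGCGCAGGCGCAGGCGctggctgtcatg

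*Mrps27* held the GABP letters upstream of the start and the YY1 letters downstream of it, and *Mrpl45* held the NRF-1 letters at 3 places. *Mrpl36* held the YY1 letters alone, and *Mrps26* held the GABP letters and a pair of overlapping NRF-1 matches. The motifs searched, on both strands, were GCGCANGCG for NRF-1, CCGGAAGT for GABP (an ETS factor) and AAGATGGCG for YY1, and they were sought in the whole RefSeq window of 300 bases, 250 before to 50 after the start. RefSeq windows were found for 67 of the 76 members tested (73 windows, since a few genes have more than 1 start). The NRF-1 letters were in 21.9% of the members' windows and in 6.25% of all 32851 mouse windows (11.04% of the windows of listed genes), the GABP letters in 16.4% against 3.89% (6.55%), and the YY1 letters in 10.96% against 1.40% (2.41%). At least 1 of the motifs was present in 34 windows (46.6%), against 10.6% of all windows and 18.3% of those of listed genes. The members with any of these letters had a median log2 fold change of -0.12, as did the members without them.

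The members also tended to start beside another gene. In GENCODE M21, 37 of the 77 (48.1%) had the start of a gene on the opposite strand within 1000 bases, against 23.4% of the 14895 listed protein-coding genes, and for 33 (42.9% against 14.1%) that neighbor encoded a protein. *Mrpl36* started beside *Ndufs6* and *Mrpl47* beside *Ndufb5*, both subunits of respiratory complex I. The GENCODE start of *Mrpl36* lies upstream of the RefSeq start used for the stretch printed above. *Mrpl43* started beside *Twnk*, which encodes the mitochondrial DNA helicase, and *Mrps12* beside *Sars2*, the mitochondrial seryl-tRNA synthetase. *Mrpl46* and *Mrps11*, of different subunits, started beside each other. These arrangements are a feature of the annotation and were not set against the expression values.

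Together the mitoribosomal genes took 0.230% to 0.266% of all normalized counts in a library, and the summed large subunit genes stood at 1.88 to 1.94 times the small subunit genes in every library. All but 1 of the 77 passed the minimum mean of 10 normalized counts. The exception was *Mrpl23*, a conserved large subunit protein, listed at 1.004, 6.45 and 5.08 in control and 3.84, 5.86 and 6.75 in AKO, and it enters no count below.

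Per kilobase of coding length, which allows levels of different genes to be set side by side, the highest mean over 6 libraries was 14.5 times the lowest. *Mrpl20* led the large subunit at 2635 normalized counts per kb, followed by *Mrpl34* at 2411 and *Mrpl42* at 2140. In the small subunit *Mrps21* stood highest at 2227, with *Mrps6* at 1669 and *Mrps17* at 1535. The lowest were *Mrpl21*, *Mrpl48* and *Mrpl47*, at 273, 286 and 296, and *Mrps33*, *Mrps22* and *Mrps10*, at 182, 279 and 281. This order depends on the length used, since levels per kilobase of all annotated exon bases ranked the members with a Spearman rho of 0.647 against it (a description across 76 genes of the same libraries).

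**Figure D1:**
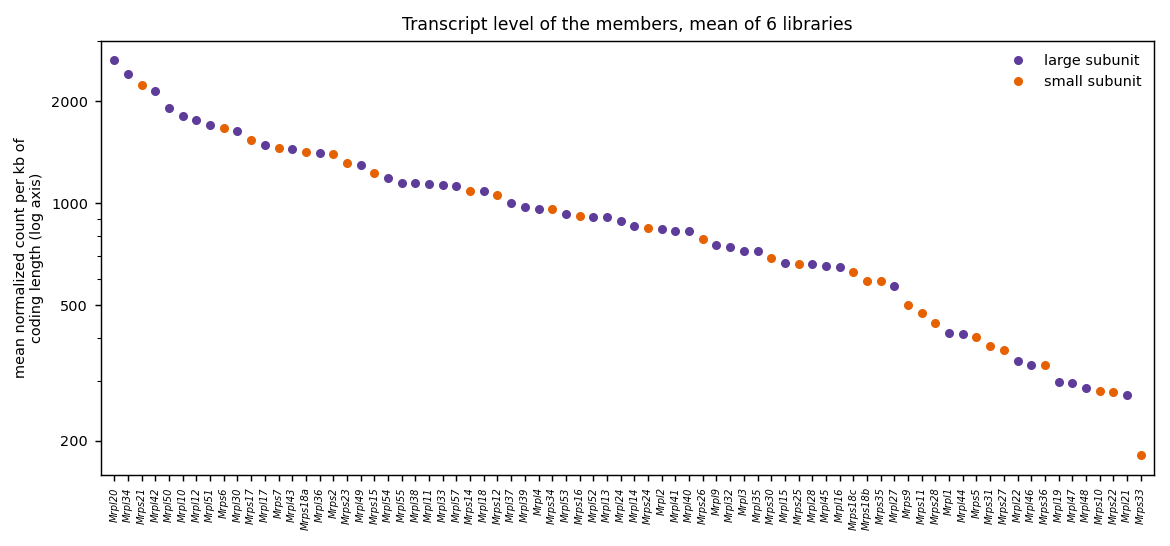
Mean normalized count per kb of coding length over the 6 libraries (log axis) for each of the 76 members tested, ordered from high to low, with large subunit genes in purple and small subunit genes in orange. Genes of both subunits are spread along the whole range, from *Mrpl20* at 2635 to *Mrps33* at 182.

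The comparison of AKO with control asks how the transcripts of the mitochondrial ribosome differ in cold-acclimated iWAT between the libraries labelled NRG4-AKO and those labelled wt. No single member passed an adjusted p of 0.05 in limma, but most of them were a little lower in AKO. The log2 fold change was negative for 66 of 76 members (86.8%), against 48.1% of all 13855 genes tested, and the median was -0.13 for the members against 0.01 for all genes. Summed over the members, the normalized counts were 42154, 50227 and 46651 in control and 40525, 42133 and 44301 in AKO. The mean of the sums was 46344 ± 4045 (SD, n = 3) in control and 42319.9 ± 1895 in AKO, a difference of -8.68%, and the 2 groups overlapped.

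Both subunits showed differences of like size. The large subunit genes summed to 27634, 32813 and 30776 in control and 26716, 27818 and 28914 in AKO, a difference in means of -8.52%, with 42 of 47 members lower and a median log2 fold change of -0.13 (quartiles -0.16 and -0.07). The small subunit genes summed to 14521, 17414 and 15875 in control and 13809, 14316 and 15387 in AKO, a difference in means of -8.99%, with 24 of 29 members lower and a median of -0.11 (quartiles -0.20 and -0.05). In both subunits control 1 lay below the highest AKO library. The 47 members with a bacterial homologue had a median of -0.13 (40 lower), and the 29 found only in mitochondria had the same median (26 lower).

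The count of members called at an adjusted p under 0.05 in limma was 0, where 2 of all genes tested (0.0144%) were called, and the smallest adjusted p among the members was 0.315. Before adjustment, 10 members (13.2%) had a p under 0.05 in limma, 5 of each subunit and all lower in AKO, against 4.69% of all genes in that direction. No member had such a p in the other direction, against 4.41% of all genes. Every AKO library lay below every control library for 18 members (23.7%), 10 of the large subunit (21.3%) and 8 of the small subunit (27.6%), where 8.31% of all genes did so. Every AKO library lay above every control library for 0 members, against 6.14% of all genes. Members were not independent of one another, since all were read in the same 6 libraries, and with 3 libraries against 3 the exact permutation test of a single gene cannot give a p below 0.1.

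**Figure D2:**
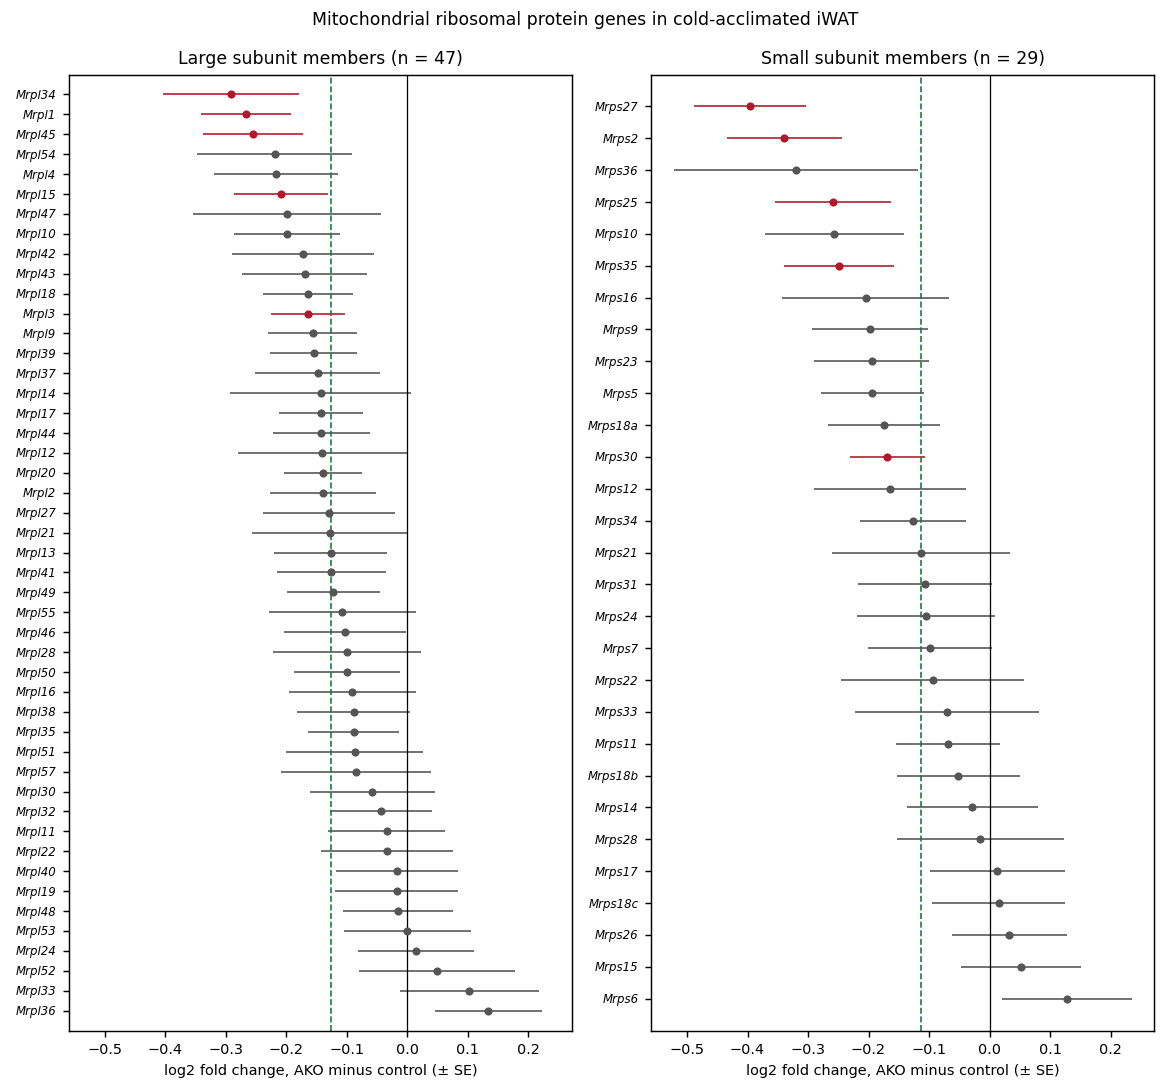
Log2 fold change (AKO minus control, limma) of each large subunit member (left, n = 47) and small subunit member (right, n = 29), with bars of ± 1 SE. Red marks members with a p under 0.05 before adjustment and the dashed green line the subunit's median. Most points lie left of 0, between -0.40 (*Mrps27*) and 0.13 (*Mrpl36*), and most bars are wide beside the shift.

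The precision of single genes limits what can be said of each. The median SE of a member's log2 fold change was 0.10 and the median half-width of its 95% interval 0.23, wider than the median difference itself. The coefficient of variation between libraries had a median of 10.3% in control and 7.22% in AKO, while counting error alone gave a median of 4.42% (2.60% to 13.2%). In 8 members in control and 17 in AKO the SD lay below counting error and so understates the error.

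Among small subunit genes, *Mrps27* and *Mrps2* stood lowest in AKO. *Mrps27* encodes a pentatricopeptide repeat protein found only in mitochondrial ribosomes. Its normalized counts were 546, 645 and 541 in control and 438, 461 and 414 in AKO, so the groups were well apart, and its mean differed by -24.2% (log2 fold change -0.40 ± 0.09, adjusted p = 0.315 in limma). The gene lies at chr13:99344786-99415562 on the plus strand, and 24.2% of its exon bases overlap a transcript on the opposite strand, whose reads cannot be told apart if counting ignored strand. *Mrps2*, which encodes the counterpart of bacterial S2, was at 1339.7, 1547 and 1208 in control and 1085, 1024 and 1113 in AKO (-0.34 ± 0.09, adjusted p = 0.387 in limma). All of its AKO libraries were below its lowest control library, and the AKO values were the closer together.

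*Mrps35* and *Mrps25* encode small subunit proteins with no bacterial homologue. *Mrps35* was at 549, 660.3 and 635 in control and 485, 543 and 521 in AKO (log2 fold change -0.25 ± 0.09), and *Mrps25* at 342, 401 and 370.0 in control and 299, 295 and 336 in AKO (-0.26 ± 0.10). In both genes control 1 was the lowest control library and only just above the highest AKO library. *Mrps25* shares 69.8% of its exon bases with *Nr2c2* on the opposite strand, so its reads are uncertain. *Mrps10*, the counterpart of bacterial S10, also had its groups apart, at 239, 298 and 236 against 209, 208 and 226 (-0.26 ± 0.11, adjusted p = 0.559 in limma).

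Among large subunit genes, *Mrpl1* had the control libraries closest together. It encodes the protein of the L1 stalk, which guides spent tRNA out of the ribosome, and was at 477, 475 and 471 in control and 393, 373 and 417 in AKO (log2 fold change -0.27 ± 0.07, adjusted p = 0.387 in limma). Its control SD of 3.15 was below counting error. *Mrpl45*, whose protein sits at the exit of the peptide tunnel and helps hold the ribosome to the inner membrane, was at 652, 724 and 698 in control and 553, 634 and 553 in AKO (-0.25 ± 0.08, adjusted p = 0.469 in limma). The groups were apart in both genes, in *Mrpl45* by the small gap between control 1 and AKO 2.

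*Mrpl3* and *Mrpl15*, counterparts of conserved bacterial proteins, had smaller differences with little spread. *Mrpl3* was at 797, 821 and 816 in control and 745, 704 and 724 in AKO (-0.16 ± 0.06), and *Mrpl15* at 696, 803 and 704 in control and 617, 644 and 643 in AKO (-0.21 ± 0.08). *Mrpl34* differed more but its groups overlapped, with control 1 at 614 beside 818 and 771, and AKO at 564, 597 and 629 (-0.29 ± 0.11). The most abundant member per coding length, *Mrpl20*, had its groups apart too, at 1202, 1257 and 1347 against 1134, 1155 and 1162 (-0.14 ± 0.06, adjusted p = 0.566 in limma).

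The remaining members at the low end were less certain. *Mrpl54* was at 452, 573 and 525 in control and 381, 444 and 508 in AKO (-0.22 ± 0.13), with the groups overlapping. *Mrps36* was at 97.3, 119 and 121 in control and 81.6, 120.1 and 73.3 in AKO (-0.32 ± 0.20), and its AKO 2 value lay among the control values. Although named for the small subunit, the Mrps36 protein is now known as a part of the 2-oxoglutarate dehydrogenase complex of the citric acid cycle.

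**Figure D3:**
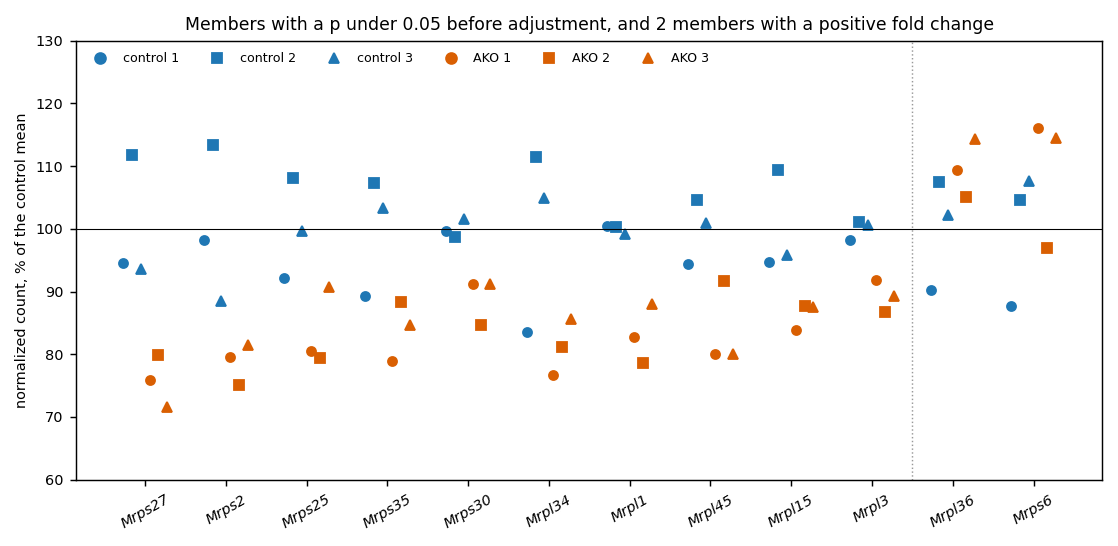
Normalized count of each library as a percent of the control mean for the 10 members with a p under 0.05 before adjustment (left of the dotted line) and for *Mrpl36* and *Mrps6*, with control in blue and AKO in orange and a symbol for each library number. AKO lies below control in the 10 members, with the groups overlapping for *Mrpl34*, and the 2 groups are mixed for *Mrpl36* and *Mrps6*.

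A few members did not share the lower level in AKO. *Mrpl36*, the counterpart of a very small bacterial protein, was at 370.3, 441 and 419 in control and 448, 431 and 469 in AKO (log2 fold change 0.13, 95% interval -0.07 to 0.34). *Mrps6*, the counterpart of bacterial S6, was at 525, 626 and 644 in control and 694, 579.9 and 685 in AKO (0.13, interval -0.12 to 0.38). Control 1 was the lowest library in both genes and the groups overlapped. *Mrpl33* stood at 0.10, *Mrpl52* and *Mrps15* at 0.05, *Mrps26* at 0.03, *Mrps18c* at 0.02 and *Mrpl24*, *Mrps17* at 0.01. Each of these but *Mrpl33* turned negative when a particular library was left out, and the intervals of all of them spanned 0.

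Some members have a place or a role apart from their name. *Mrpl12* encodes the protein of the L7/L12 stalk and has also been described as a partner of the mitochondrial RNA polymerase. It was at 939, 1338 and 1066 in control and 878, 1028 and 1109.7 in AKO (-0.14 ± 0.14), with the groups overlapping. *Mrps30* and *Mrps18a* are named for the small subunit, but their proteins sit in the large one. *Mrps30* was at 965, 955 and 984 in control and 883, 819 and 883 in AKO (-0.17 ± 0.06), with the groups apart, and *Mrps18a* at 793, 967 and 904 in control and 742, 766 and 847 in AKO (-0.17 ± 0.09). The related *Mrps18b* and *Mrps18c*, whose proteins belong to the small subunit, stood at -0.05 ± 0.10 and 0.02 ± 0.11.

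Several proteins of the same ribosome carry other names and fall outside the symbol rule. *Ptcd3* encodes a pentatricopeptide repeat protein at the mRNA entrance of the small subunit and was at 1037, 1084 and 1026 in control and 879, 933 and 825 in AKO (-0.26 ± 0.07, adjusted p = 0.374 in limma). *Dap3*, a GTP-binding small subunit protein, was at 1068, 1123 and 1042 in control and 909, 945 and 960.2 in AKO (-0.20 ± 0.06, adjusted p = 0.450 in limma). The groups were apart in both genes, with AKO lower.

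*Chchd1*, which also encodes a small subunit protein, went the other way. It was at 225, 276 and 264 in control and 289, 292 and 331 in AKO (0.25 ± 0.11, adjusted p = 0.539 in limma), and every AKO library lay above every control library. *Gadd45gip1* of the large subunit stood at -0.15 ± 0.09 and *Aurkaip1* of the small subunit at 0.00 ± 0.09. *Mrpl58*, listed under its older symbol *Ict1*, encodes a peptidyl-tRNA hydrolase built into the large subunit and was at 368, 515 and 468 in control and 376, 406 and 418 in AKO (-0.16 ± 0.13). Genes were also sorted by place in the assembled ribosome instead of by name. For this, *Mrps30* and *Mrps18a* moved to the large subunit, and *Mrps36* was left out. *Ptcd3*, *Dap3*, *Chchd1*, *Aurkaip1* and *Gadd45gip1* were added, but *Mrpl58* was not. The medians were then -0.13 for 50 large subunit genes and -0.11 for 30 small subunit genes.

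The libraries did not contribute evenly to these differences. Control 2 had the highest value of the 6 libraries for 50 of the 76 members, AKO 1 had the lowest for 34, and control 1 had the lowest for 24. Control 1 lay within the range of the AKO libraries for 33 members, above all of them for 19 and below all of them for 24. Control 2 lay above every AKO library for 59 members and control 3 for 50. Control 1 was thus above the AKO libraries for a minority of the members.

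The counts of members moved with these libraries. Without control 1, 27 members had a p under 0.05 before adjustment in limma, all lower in AKO (5.68% of all genes were lower at that p), the groups were apart for 42, all with AKO below (15.1% of all genes), and 73 were lower, with medians of -0.19 for the large and -0.21 for the small subunit. Without control 2, 5 members had such a p (2.76% of all genes), and the medians were -0.07 and -0.08. Without AKO 1, 5 members had such a p (3.49% of all genes). Without AKO 3, the groups were apart for 30 members (13% of all genes).

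The scaling between libraries bears on the direction as well. The deposited scaling gave 1 read a value of 1.004 to 1.08 in the control libraries and of 0.960 to 0.976 in the AKO libraries. With libraries scaled to equal total reads instead, 56 of 76 members were lower in AKO in place of 66, with medians of -0.07 and -0.05 for the large and small subunit beside a median of 0.07 over all genes. A p under 0.05 before adjustment in limma was found for 7 members, 6 of them lower (364 of 13857 genes were lower at that p). The groups were apart for 12 members, 11 of them with AKO below (622 of 13857 genes). Since this scaling moves all genes of a library alike, the members' position relative to all genes is nearly the same by construction.

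**Figure D4:**
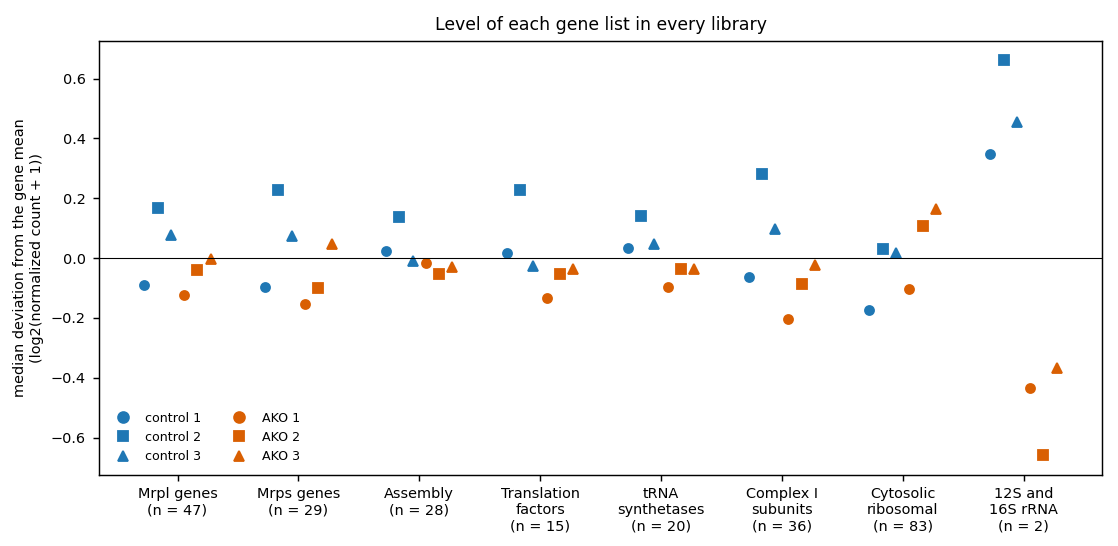
Median deviation of each gene list from the gene means, in log2(normalized count + 1), for every library, with control in blue, AKO in orange and n the number of genes tested in each list. In both mitoribosomal lists control 2 is highest, at 0.17 and 0.23, and AKO 1 lowest, at -0.12 and -0.15, with control 1 at -0.09 and -0.10 beside it, and the 2 ribosomal RNAs show control and AKO well apart.

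The wider machinery of mitochondrial translation was read from lists chosen for function. Of 28 genes for assembly of the mitoribosome, 25 were lower in AKO with a median log2 fold change of -0.09, and 2 of them had a p under 0.05 before adjustment in limma, both lower, a share of 7.14% beside 4.69% of all genes. *Gtpbp10*, a GTPase of large subunit assembly, was the lowest at -0.33 ± 0.18, and *Mettl17*, a factor of small subunit assembly, stood at -0.21 ± 0.14, neither with groups apart. *Gtpbp6* and *Ybey* were the highest, at 0.15 ± 0.14 and 0.11 ± 0.17. No gene of this list was called after adjustment.

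Most translation factors and enzymes that charge mitochondrial tRNAs also had lower means in AKO. Of 15 translation factors and mRNA-binding proteins, 14 were lower, with a median of -0.11. In this list 6 had a p under 0.05 before adjustment in limma, all lower, a share of 40% beside 4.69% of all genes. *Tufm*, the mitochondrial elongation factor Tu that carries charged tRNA to the ribosome, was at 198, 243 and 173 in control and 153, 157 and 160.0 in AKO (-0.37 ± 0.14). *Lrpprc*, which stabilizes mitochondrial mRNAs, was at 1420.0, 1538 and 1211 in control and 1086, 1202 and 1092 in AKO (-0.30 ± 0.10). The groups were apart in both. Its partner *Slirp* stood at -0.03 ± 0.20 and the release factor *Mtrf1l* at 0.18 ± 0.14. Of 20 aminoacyl-tRNA synthetase and amidotransferase genes, 16 were lower with a median of -0.14. Among them 4 had a p under 0.05 before adjustment in limma, all lower, a share of 20% beside 4.69% of all genes. They included *Yars2* at -0.31 ± 0.11 and *Gatb* at -0.26 ± 0.10, while *Gatc* stood at 0.05 ± 0.08.

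The regulators of mitochondrial transcription and biogenesis were mixed. Of 14 tested, 10 were lower, with a median of -0.16. Only 1 gene had a p under 0.05 before adjustment in limma, lower in AKO, a share of 7.14% beside 4.69% of all genes. That gene was *Esrra*, the nuclear receptor ERRα, which acts with PGC-1 coactivators on genes of oxidative metabolism. It was at 1566, 1837 and 1491 in control and 1347, 1334 and 1255 in AKO (-0.31 ± 0.09, adjusted p = 0.387 in limma), with the groups apart. *Nrf1*, which encodes the factor NRF-1, was at 266, 239.8 and 238 in control and 271, 272 and 297 in AKO (0.18 ± 0.09), every AKO library being above every control library. *Pprc1*, a coactivator related to PGC-1α, stood at 0.16 ± 0.09 and *Mterf1a* at -0.33 ± 0.31, from values near the minimum level.

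The RNAs and the partners of the ribosome differed by other amounts. The 12S ribosomal RNA of the small subunit (*mt-Rnr1*) was at 44026, 59550.2 and 47715 in control and 25831, 24067 and 27979 in AKO (-0.95 ± 0.13, adjusted p = 0.0909 in limma), and the 16S RNA of the large subunit (*mt-Rnr2*) at 106950.0, 122135 and 114357 in control and 61670.0, 48597 and 62573 in AKO (-0.998 ± 0.13, adjusted p = 0.0909 in limma). Neither RNA passed the threshold in limma (both did in DESeq2), and the difference between their fold changes and the members' median of -0.13 was not tested. The text of the study does not say how library preparation treated ribosomal RNA, on which these counts depend. Subunits of complex I assemble with products of the mitochondrial ribosome. Of 36 nuclear genes named for complex I subunits, 35 were lower with a median of -0.18. The list was taken by symbol and holds *Ndufa4* and *Ndufa4l2*, whose names alone place them there. A p under 0.05 before adjustment in limma was found for 12, all lower, a share of 33.3% beside 4.69% of all genes. *Ndufv1* was at 4785, 5647 and 4689 in control and 3862, 4033 and 4008 in AKO (-0.34 ± 0.08), and *Ndufs8* at -0.35 ± 0.13, while *Ndufa6* stood at -0.05 ± 0.08 and *Ndufb4* at 0.09 ± 0.17.

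Most genes of the cytosolic ribosome had higher means in AKO. Of 83 tested, 18 were lower, with a median of 0.10, and 4 had a p under 0.05 before adjustment in limma, all higher in AKO, a share of 4.82% beside 4.41% of all genes. *Rpl13* was at 51.2, 55.9 and 65.1 in control and 99.9, 105 and 80.0 in AKO (0.72 ± 0.17, adjusted p = 0.315 in limma), and *Rpl3l*, a muscle form, at 3.01, 54.8 and 35.6 in control and 31.7, 174 and 202 in AKO. *Rps13* and *Rpl37rt* stood at -0.66 ± 0.40 and -0.70 ± 0.34 from few reads. Many cytosolic ribosomal protein genes have processed pseudogenes of near-identical sequence, so reads could be divided among copies and these levels are uncertain. The difference between this list and the mitoribosomal genes was not tested.

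Markers of other cell types also varied between the libraries. The 7 skeletal muscle markers (*Acta1*, *Ckm*, *Myh4*, *Mylpf*, *Tnnt3*, *Myh1* and *Atp2a1*) summed to 139 to 22711 in control, lowest in control 1, and 16616 to 97429.7 in AKO, highest in AKO 3, with 6 of 7 higher in AKO on average, and *Ckm* was down to 4.01 in control 1. The 6 mammary epithelium markers (*Krt5*, *Krt14*, *Krt8*, *Krt18*, *Epcam* and *Csn3*) summed to 10.8 to 1183 in control and 132 to 1550.4 in AKO, all 6 higher on average in AKO, and *Krt5*, *Krt14*, *Krt8* and *Epcam* were at 0 in control 2. The 5 macrophage markers (*Adgre1*, *Cd68*, *Csf1r*, *C1qa* and *Lyz2*) summed to 6611 to 9204 in control and 8138 to 11056 in AKO, all 5 higher on average in AKO. The 4 lymphocyte markers summed to 614, 66.7 and 53.9 in control and 73.0, 789.8 and 49.2 in AKO. Control 1 and AKO 2 were thus far above the other libraries. The 3 endothelial markers summed to 14832 to 15950.0 in control and 13700.5 to 15500.3 in AKO. Control 1, low for the mitoribosomal genes, was also lowest in muscle markers and, of the control libraries, highest in lymphocyte markers. Control 2, highest for the mitoribosomal genes, was lowest in mammary markers and highest in beige markers. The part of these cell types in the differences between genotypes was not tested.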

How the data were processed

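RNA was extracted from frozen iWAT, sequenced in bulk and, by the methods of the study, aligned with STAR to the mouse genome GRCm38.p6 (mm10), counted per gene with featureCounts on a GENCODE annotation and tested for genotype with DESeq2. Whether counting used strand is not given in the sources used here. For each library the authors deposited a signal, here called the normalized count, which is the number of reads on a gene after scaling by DESeq2's size factors. Authors' columns of fold changes and p-values were in the same table and were not used. Columns of per-sample values with no sample numbered 0. Dividing by the value of 1 read gave back the read counts, with 100% of values within 0.01 of a whole number. Depth was 17570335 to 18373707 reads per library, and within each genotype any 2 libraries differed by more than sampling noise, so all 6 were kept as separate samples.

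The genotype label put each sample in its group. Genotype was compared with limma (version 3.58.1, R version 4.3.3) on log2(normalized count + 1) with a variance trend, over 13855 genes (mean normalized count of 10 or more), with Benjamini-Hochberg adjustment over all of them. A fold change on this scale understates the change of genes with few reads. An adjusted p under 0.05 was a call. P-values measure the spread between pools of mice, and the exact permutation test of single genes was 2-sided. The script was tested on simulated data with known changes.

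The members and all lists were chosen with earlier results of these data known. Members named in the text were those with a p under 0.05 before adjustment, the 4 lowest and 4 highest fold changes of each subunit, the 3 highest and 3 lowest levels per kb of coding length of each subunit, those with a known place or role apart from their name, ribosomal proteins without the prefix and, of each further list, the 2 lowest and 2 highest fold changes. One gene this rule names is not reported here. Members named for a neighboring gene were picked after their annotation was seen.

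Positions, exon and coding lengths came from GENCODE M21, which matched all 77 members, and promoter windows from RefSeq. Alternatives were other pseudocounts and filters, edgeR (version 4.0.16) and DESeq2 (version 1.42.0) on the recovered reads, TMM and total-read scaling, the replicate number as a block, subunits by place in the ribosome, and leaving out each library.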

Additional observations from a re-analysis of the deposited data

How the results depend on the processing

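No member was called under any alternative, and the smallest adjusted p of a member was 0.098, in DESeq2. The median log2 fold change of each subunit stayed negative throughout. The count of members with a p under 0.05 before adjustment was 10 in the limma test as reported and 6 with DESeq2 (542 of 16538 genes were lower at that p). It was 7 with total-read scaling, 6 of them lower (364 of 13857 genes were lower), and 5 to 27 when a library was left out. The 18 members whose groups were apart became 12 with total-read scaling, 11 of them with AKO below (622 of 13857 genes). Without a library they became 20 to 42, where fewer libraries separate more easily. Over all genes, the 2 calls of limma became 6 with at least 10 in every library, 149 with DESeq2 and 0 to 3 without a library. The cause of these shifts was not tested.

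Replicate numbers were not shown to pair the libraries, since same-numbered libraries deviated together with correlations of 0.135, -0.351 and 0.240. With the replicate number as a block, 11 members had a p under 0.05 before adjustment, all lower (665 of 13855 genes were lower at that p), and the smallest adjusted p of a member was 0.153.

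Of 987 alternative values for 66 named genes, 951 kept direction and call, 31 turned direction and 5 kept direction and passed the adjusted threshold that they had missed (*mt-Rnr1*, *mt-Rnr2*, *Ndufv1* and *Ucp1* with DESeq2, and *Ucp1* with at least 10 in every library). With total-read scaling *Mrpl48* turned to 0.044, *Mrps18b* to 0.00697, *Aurkaip1* to 0.057, *Slirp* to 0.032 and *Ndufa6* to 0.00791. With edgeR *Aurkaip1* turned to 0.00594 and *Slirp* to 0.00454, and with TMM scaling *Aurkaip1* turned to 0.00688. Leaving out a library gave log2 fold changes of -0.057 to 0.078 for *Mrpl24*, -0.092 to 0.149 for *Mrpl52*, -0.074 to 0.052 for *Mrpl48*, -0.046 to 0.124 for *Mrps18c*, -0.037 to 0.106 for *Mrps26*, -0.013 to 0.132 for *Mrps15*, -0.061 to 0.117 for *Mrps17*, -0.125 to 0.041 for *Mrps18b*, -0.099 to 0.051 for *Aurkaip1*, -0.00292 to 0.202 for *Ybey*, -0.213 to 0.146 for *Slirp* and -0.078 to 0.237 for *Ndufb4*. The 3 libraries per genotype and an SE near 0.10 for most members limit what can be said of single genes. The part of depth in this limit was not tested.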
